A study of Mus musculus with 2 samples.

Results

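Acetylcholine and the monoamines are transmitters that a neuron can use only if it expresses a short set of genes for synthesis, vesicle loading, uptake and breakdown, and 10 such genes were followed here in the mouse neural tube. They were chosen by name: Chat, Slc18a3, Slc5a7 and Ache of the cholinergic route, and Th, Ddc, Dbh, Tph2, Slc18a2 and Slc6a4 of the monoamine route. All 10 were found by gene identifier among the 43346 mouse genes of the deposited tables. The samples were 2 libraries of total RNA from neural tube at embryonic day 13.5, the biological replicates 1 and 2 of a single group. The labels give strain B6NCrl, embryos of both sexes pooled, healthy tissue, 10 ng of RNA per library and added spike-in RNA. No treatment or genotype was compared, so each result is a level with its spread, a ratio between genes, or one library set against the other.

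In a cholinergic neuron, choline acetyltransferase (Chat) makes acetylcholine, the vesicular transporter encoded by Slc18a3 loads it into vesicles, and the choline transporter encoded by Slc5a7 returns choline after acetylcholinesterase (Ache) has split the transmitter. Spinal motor neurons and preganglionic autonomic neurons use this route. In the monoamine route, tyrosine hydroxylase (Th) and tryptophan hydroxylase (Tph2) carry out the first steps toward catecholamines and serotonin, and aromatic amino acid decarboxylase (Ddc) serves both branches. Dopamine beta-hydroxylase (Dbh) converts dopamine to noradrenaline, the vesicular transporter encoded by Slc18a2 loads every monoamine, and the transporter encoded by Slc6a4 takes serotonin back up. Sympathetic neurons, hindbrain serotonin neurons and midbrain dopamine neurons are the classical users of these genes.

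The libraries held 34125110 and 22311849 estimated reads in replicates 1 and 2, so replicate 1 gives the smaller counting error. The tissue label was checked against pan-neuronal genes, of which 6 of 6 reached 1 TPM in both libraries (TPM counts transcripts after division by length, scaled to a fixed total in each library). They ran from the tubulin gene Tubb3 at 1245 and 1175 TPM down to the RNA-binding protein gene Elavl3 at 46.0 and 42.9 TPM. Nefl, a neurofilament gene, stood at 852 and 888 TPM and Stmn2 at 818 and 795 TPM. Skeletal muscle markers differed most between the libraries: they summed to 49.9 and 137 TPM in replicates 1 and 2, and the values that touch a member are given beside it.

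Detection was set at 1 TPM in each of the libraries, and 7 of the 10 genes reached it. The same level was reached by 61.8% of 21474 protein-coding genes, so the share among the members was close to that background. The detected genes were all 4 of the cholinergic route and 3 of the 6 of the monoamine route. Dbh, Tph2 and Slc6a4 stayed below 1 TPM in each library. The median of the members' mean levels was 5.45 TPM, against 4.97 TPM over protein-coding genes. In bulk tissue, few cells with much of a transcript and many cells with little of it cannot be told apart, and this holds for each level below.

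By mean level the order was Th, Ache, Slc18a3, Slc18a2, Slc5a7, Ddc, Chat, Dbh, Tph2 and Slc6a4. The first exceeded the last 276-fold. Of the 9 neighbouring pairs in that order, 5 had no overlap between their libraries: Th above Ache, Ache above Slc18a3, Slc18a3 above Slc18a2, Slc5a7 above Ddc, and Chat above Dbh. The other 4 pairs overlapped, so Slc18a2 was not separated from Slc5a7, nor Ddc from Chat, nor Dbh from Tph2, nor Tph2 from Slc6a4. With 2 libraries no permutation test could pass a threshold, and the order is a description.

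**Figure D1:**
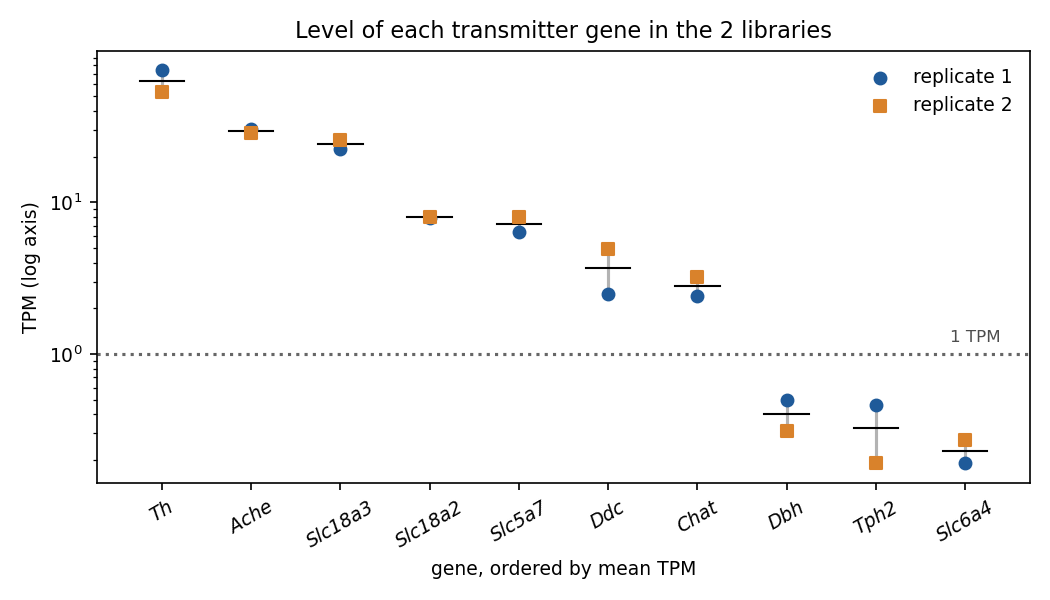
TPM of each gene (log axis) in replicate 1 (circles) and replicate 2 (squares), with the mean as a black line and the 1 TPM detection level dotted. Th lies highest at 74.1 and 53.0 TPM, and Dbh, Tph2 and Slc6a4 lie below 1 TPM in both libraries.

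Among cholinergic genes, the transcript for vesicle loading was more abundant than that for synthesis. Slc18a3, the vesicular acetylcholine transporter gene (ENSMUSG00000100241.1, GRCm38, chromosome 14, 32462438 to 32464850, minus strand), stood at 22.6 TPM in replicate 1 and 25.6 TPM in replicate 2, a mean of 24.1 ± 2.13 (SD, n = 2). Chat (ENSMUSG00000021919.7, chromosome 14, 32408203 to 32465989, minus strand) stood at 2.41 and 3.24 TPM, a mean of 2.83 ± 0.587 (SD, n = 2). Both genes were higher in replicate 2, and the lowest Slc18a3 value lay well above the highest Chat value. Slc18a3 exceeded Chat 9.37-fold in replicate 1 and 7.90-fold in replicate 2, a mean log2 ratio of 3.11 ± 0.17 (SD, n = 2). The counting error of that log2 ratio was 0.13 and 0.14 (SE), so the difference is large against both the replicate spread and the counting noise. The counts behind it were 1182 and 849 for Slc18a3 and 148 and 126 for Chat.

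These genes share a locus, called the cholinergic gene locus in textbooks. Slc18a3 is a single exon of 2413 bases that contains its whole coding sequence (32462835 to 32464424), and it lies inside intron 1 of Chat, on the same strand. In the GENCODE M21 model Chat-201, that intron runs from 32460914 to 32465806, a length of 4893 bases, and the Slc18a3 start lies 1107 bases downstream of the Chat-201 start. None of the 8 Chat transcripts of M21 has an exon that overlaps the Slc18a3 exon (0 of 8). Reads from unspliced Chat RNA over this interval and reads from Slc18a3 RNA therefore cannot be told apart in the tables. The deposited tables held 1 transcript for each of these genes, with an isoform share of 100% in both libraries. Chat-201 is 2810 bases long in the tables and 2858 in M21, so its model differs slightly, and the other 7 Chat transcripts of M21 have no value here. The antisense gene Gm2990 (32465042 to 32483548, plus strand) begins within the same Chat intron, upstream of Slc18a3, and had 5.12 and 4.56 TPM. In M21, 0 of its 4 exons overlap an exon of Chat-201 and 0 overlap the Slc18a3 exon. How strand was handled is not stated for these tables, so unspliced RNA of Gm2990 and of Chat cannot be told apart where the genes overlap.

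**Figure D2:**
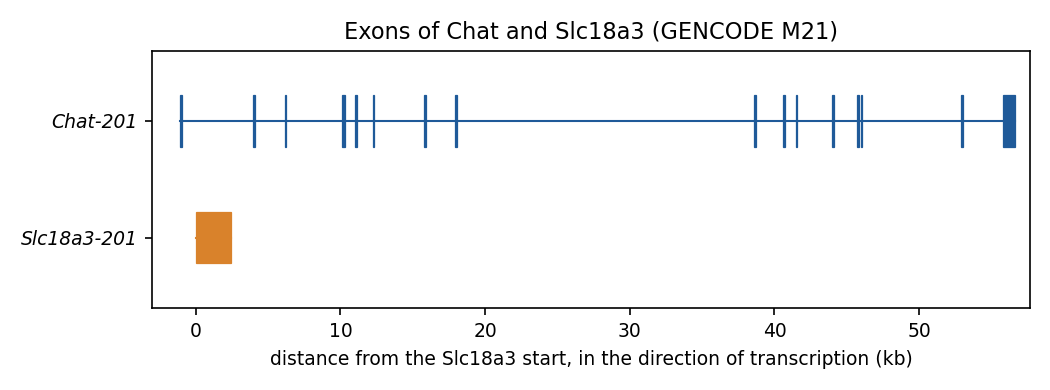
Exons (boxes) and introns (lines) of Chat-201 and the Slc18a3 transcript in GENCODE M21, in kb from the Slc18a3 start in the direction of transcription. The single Slc18a3 exon sits within the first of the 15 Chat introns.

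The promoter windows of the locus are shown because the nested genes have separate annotated starts. Windows span 250 bases before to 50 after a start in RefSeq (GRCm38.p6), are written 5′ to 3′ on the gene's strand, and all 10 members matched one. Their starts lie 1059 bases apart. Capitals mark matches on either strand to 5 motifs searched in each window: the cAMP response element TGACGTCA, the TATA box TATAAA, the CCAAT box, the GC box GGGCGG and the homeodomain core TAATTA. These motifs occur in 1.79%, 13.6%, 37.4%, 35.7% and 5.29% of all 32851 windows. A match describes letters, not binding. The Chat window (chr14:32465860-32466159, minus strand) held 2 CCAAT boxes, 181 and 157 bases before the start, while the Slc18a3 window (chr14:32464801-32465100, minus strand) held 2 GC boxes, 142 and 122 bases before the start.
Chat: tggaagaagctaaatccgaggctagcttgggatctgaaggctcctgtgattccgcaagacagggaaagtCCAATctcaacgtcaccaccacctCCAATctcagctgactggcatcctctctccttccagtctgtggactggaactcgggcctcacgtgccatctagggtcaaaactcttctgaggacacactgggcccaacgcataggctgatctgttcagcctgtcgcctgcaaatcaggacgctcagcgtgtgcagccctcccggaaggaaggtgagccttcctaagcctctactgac
Slc18a3: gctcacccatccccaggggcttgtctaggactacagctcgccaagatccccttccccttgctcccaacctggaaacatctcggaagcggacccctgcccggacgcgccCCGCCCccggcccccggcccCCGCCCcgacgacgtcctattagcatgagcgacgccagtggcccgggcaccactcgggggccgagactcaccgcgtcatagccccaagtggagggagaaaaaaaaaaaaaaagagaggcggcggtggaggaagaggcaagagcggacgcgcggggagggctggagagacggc
The Slc18a3 window had a GC content of 67.0% and the Chat window 55.7%, against a median of 52.7% over all windows.

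The other cholinergic genes lay between or above this pair. Slc5a7, the choline transporter gene (ENSMUSG00000023945.6, chromosome 17, 54273590 to 54299034, minus strand), stood at 6.40 and 7.96 TPM, a mean of 7.18 ± 1.10 (SD, n = 2). Like Chat and Slc18a3 it was higher in replicate 2. Slc18a3 exceeded it 3.53-fold and 3.22-fold in replicates 1 and 2, and the 3 genes thus kept the order loading, uptake, synthesis in each library.

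Ache, the acetylcholinesterase gene (ENSMUSG00000023328.10, chromosome 5, 137287519 to 137294466, plus strand), was the highest cholinergic gene. It stood at 30.5 TPM in replicate 1 and 28.8 TPM in replicate 2, a mean of 29.6 ± 1.24 (SD, n = 2), which is above 77.3% of protein-coding genes. It exceeded Chat 12.7-fold and 8.88-fold in the 2 libraries. Skeletal muscle and red blood cells also express Ache. The 9 muscle markers summed to 2.75 times as much in replicate 2 as in replicate 1, whereas Ache was 1.06 times as high in replicate 1 as in replicate 2. The erythroid markers, led by the globin genes Hbb-y at 2767 and 2921, Hba-a1 at 1801 and 1932 and Hbb-bh1 at 23.9 and 43.4 TPM and with Epor lowest at 1.28 and 1.65 TPM, summed to 4614 and 4924 TPM. The part of these cells in the Ache level was not tested.

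Ache reads were divided among 8 transcripts in the tables. Ache-201 took 58.6% and 72.1% of the gene's TPM in replicates 1 and 2, and Ache-202 took 38.9% and 25.8%. These transcripts have the same coding segments in M21. Ache-202 has 3 more bases at the start of exon 2, and Ache-201 has 7 more at the start of exon 1 and 6 more at its 3′ end. The posterior standard deviation of the Ache-201 count was 101 reads of 844 in replicate 1 and 102 of 620 in replicate 2, so the share is poorly resolved. Ache-208, which retains an intron, took 1.39% and 1.36%.

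On the monoamine side, Th dominated. Th, tyrosine hydroxylase (ENSMUSG00000000214.6, chromosome 7, 142892752 to 142931128, minus strand), stood at 74.1 TPM in replicate 1 and 53.0 TPM in replicate 2, a mean of 63.6 ± 14.9 (SD, n = 2). It lay above 88.5% of protein-coding genes and made up 86.5% and 79.4% of the summed TPM of the 6 monoamine genes. Almost all of it was the transcript Th-201, with a share of 99.9% in replicate 1 and 100% in replicate 2. Th-202, whose first exon lies far upstream, had 3.45 and 0 estimated reads.

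The enzymes that act after or beside Th were much lower. Ddc (ENSMUSG00000020182.12, chromosome 11, 11814101 to 11898144, minus strand) stood at 2.47 and 4.96 TPM, a mean of 3.72 ± 1.76 (SD, n = 2). Th exceeded it 30.01-fold in replicate 1 and 10.7-fold in replicate 2, so the size of this ratio, though not its direction, depends on the library. Dbh (ENSMUSG00000000889.8, chromosome 2, 27165233 to 27183200, plus strand) stood at 0.50 and 0.31 TPM, from 28 and 11 reads. Th exceeded Dbh 148-fold and 171-fold, a mean log2 ratio of 7.31 ± 0.15 (SD, n = 2). The counting SE of that log2 ratio was larger, 0.27 and 0.44 in the 2 libraries, and with posterior mean TPM the ratio was 6.05. Tph2 (ENSMUSG00000006764.8, chromosome 10, 115078641 to 115185022, minus strand) stood at 0.46 and 0.19 TPM, from 26 and 7 reads. Th exceeded Tph2 161-fold and 279-fold, a mean log2 ratio of 7.73 with counting SEs of 0.28 and 0.55, which became 6.66 with posterior mean TPM.

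For monoamines too, the vesicle-loading gene was more abundant than the others beside Th. Slc18a2, the vesicular monoamine transporter gene (ENSMUSG00000025094.7, chromosome 19, 59260896 to 59296012, plus strand), stood at 7.90 and 8.03 TPM, a mean of 7.97 ± 0.0919 (SD, n = 2), with the smallest relative spread of the 10 genes, 1.15% of its mean. Slc6a4, the serotonin transporter gene (ENSMUSG00000020838.8, chromosome 11, 76998603 to 77032340, plus strand), stood at 0.19 and 0.27 TPM, from 11 and 10 reads. Slc18a2 exceeded it 41.6-fold and 29.7-fold, a mean log2 ratio of 5.14 with counting SEs of 0.44 and 0.46, which became 4.25 with posterior mean TPM. Slc18a2 also exceeded Ddc in each library, 3.20-fold and 1.62-fold in replicates 1 and 2.

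Of the 11 member windows, 2 held the cAMP response element, those of Th and Slc18a2, and these are shown because the element is a textbook feature of the Th promoter. In the Th window (chr7:142899946-142900245, minus strand) it began 45 bases before the start, with a GC box 220 bases before it. In the Slc18a2 window (chr19:59260628-59260927, plus strand) it began 4 bases before the start and ran across it, with GC boxes 59 and 27 bases before the start.
Th: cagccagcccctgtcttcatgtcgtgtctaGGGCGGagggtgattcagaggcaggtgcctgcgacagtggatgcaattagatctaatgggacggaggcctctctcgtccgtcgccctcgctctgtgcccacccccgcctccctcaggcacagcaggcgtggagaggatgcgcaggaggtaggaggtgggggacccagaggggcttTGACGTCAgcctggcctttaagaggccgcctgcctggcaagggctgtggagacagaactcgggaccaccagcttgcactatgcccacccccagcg
Slc18a2: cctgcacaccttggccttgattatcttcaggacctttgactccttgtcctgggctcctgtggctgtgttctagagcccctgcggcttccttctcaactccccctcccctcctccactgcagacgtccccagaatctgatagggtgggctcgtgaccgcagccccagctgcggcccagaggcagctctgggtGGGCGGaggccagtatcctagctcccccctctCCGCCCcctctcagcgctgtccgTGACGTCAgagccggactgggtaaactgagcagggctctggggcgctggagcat
The Dbh window held a CCAAT box 150 bases before the start and the Tph2 window a TATA box 30 bases before it, each with no match to the other motifs.

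The Ddc level depended on how reads were divided among transcripts. Its counts were nearly equal, 98 and 96 reads, against a depth that was lower in replicate 2, while its TPM was 2.01 times as high in replicate 2. In replicate 1, Ddc-202 took 92.39 reads and 89.1% of the gene's TPM. In replicate 2 it took 66.63 reads and 50.5%, and the shorter processed transcript Ddc-206 took 27.33 reads and 44.4%. Ddc-206 had 0 reads in replicate 1, and 4 of its 5 exons end at the same 3′ base as exons of Ddc-202 in M21. With Ddc-206 at 964 bases and Ddc-202 at 1954, the effective length of the gene was 1754 bases in replicate 1 and 1350 in replicate 2, and TPM divides by it. By posterior mean estimates the share of Ddc-202 was only 38.4% and 28.5%, so the division among transcripts is uncertain at this count. On the level of Ddc-202 alone, the libraries stood at 2.20 and 2.51 TPM.

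**Figure D3:**
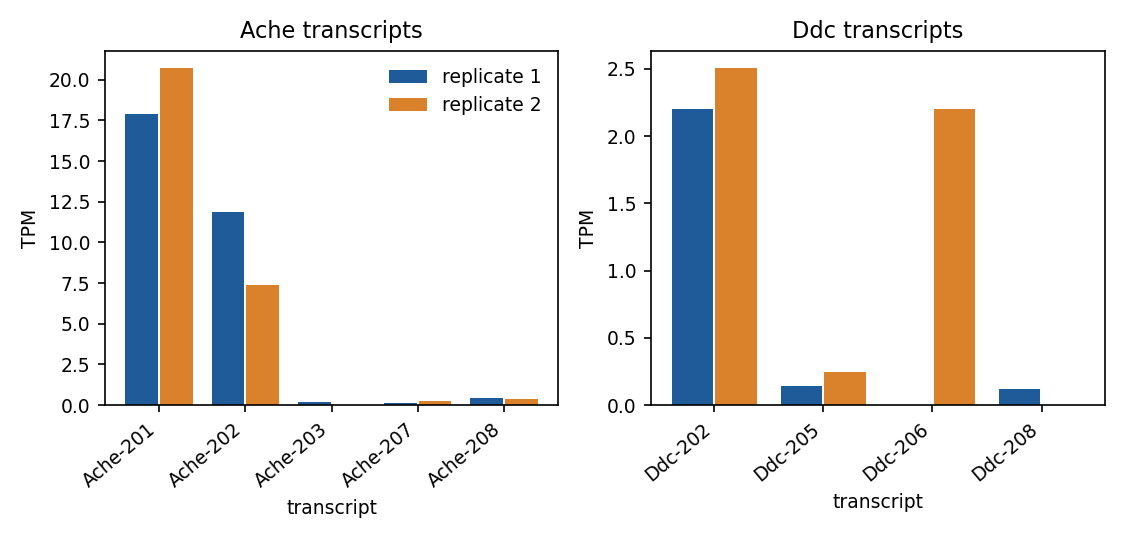
TPM of each transcript with a value above 0 in either library for Ache (left) and Ddc (right), replicate 1 in blue and replicate 2 in orange. Ddc-206 has 2.20 TPM in replicate 2 and none in replicate 1, while Ddc-202 is at 2.20 and 2.51 TPM.

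Ddc is also known for alternative start sites that differ between neuronal and other tissues. The start of Ddc-202 lies 7636 bases downstream of the start of Ddc-201. Ddc-201 and Ddc-210, which use the upstream start, were given 0 reads in both libraries. The posterior mean estimate still left 15.3% and 7.04% of the gene's TPM to Ddc-201, and 8.57% and 4.49% to Ddc-210, so these tables do not settle whether the upstream start was used at a low level. Both windows are shown, first the downstream one (chr11:11890359-11890658, minus strand), which holds a CCAAT box on the opposite strand 55 bases before the start. The upstream one (chr11:11898095-11898394, minus strand) holds a TATA box on the opposite strand 68 bases before the start.
Ddc downstream start: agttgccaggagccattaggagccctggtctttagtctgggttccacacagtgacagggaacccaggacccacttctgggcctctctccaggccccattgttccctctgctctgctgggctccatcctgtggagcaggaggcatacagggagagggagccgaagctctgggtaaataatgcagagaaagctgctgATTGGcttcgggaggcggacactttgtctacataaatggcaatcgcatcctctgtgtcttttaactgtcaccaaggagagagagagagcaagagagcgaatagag
Ddc upstream start: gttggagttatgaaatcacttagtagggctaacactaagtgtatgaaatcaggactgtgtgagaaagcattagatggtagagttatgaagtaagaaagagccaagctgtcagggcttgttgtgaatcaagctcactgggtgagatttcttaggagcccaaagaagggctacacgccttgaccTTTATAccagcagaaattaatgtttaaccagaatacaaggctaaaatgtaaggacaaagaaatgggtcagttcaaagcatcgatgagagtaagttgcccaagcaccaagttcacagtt
Their GC contents were 54.3% and 41.3%.

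The libraries were then set against each other. A two-sided exact binomial test compared each gene's counts with the effective library sizes over 17428 genes, and calling a gene required 2-fold or more together with an adjusted p below 0.05. It carries counting noise only and compares these 2 libraries, not conditions. None of the 10 members was called, while 2.25% of all genes tested were. On the adjusted p alone, 24.6% of all genes passed and so did 3 of the 10 members: Th, Slc5a7 and Ddc. At an unadjusted p under 0.05 there were 6 members, the others being Ache, Chat and Tph2, against 34.6% of all genes. Beyond counting noise, edgeR put the spread between the libraries at a coefficient of variation of 9.24% for the same genes.

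Th was lower in replicate 2 by the clearest margin, with a log2 count ratio of -0.54 ± 0.05 (counting SE) and an adjusted p of 1.18e-28 in the exact binomial test. Its TPM was 1.40 times as high in replicate 1. Slc5a7 was higher in replicate 2, with a log2 ratio of 0.25 ± 0.08 (exact binomial test, adjusted p = 0.00985). Relative to library size, the Ddc count was higher in replicate 2, with a log2 ratio of 0.57 ± 0.21 (exact binomial test, adjusted p = 0.0306). Chat had a log2 ratio of 0.37 ± 0.17, Slc18a3 0.12 ± 0.06, Ache -0.14 ± 0.06 and Slc18a2 -0.04 ± 0.09, none past the adjusted threshold. The 3 rare genes had wide errors: Dbh -0.71 ± 0.50, Tph2 -1.22 ± 0.60 and Slc6a4 0.47 ± 0.62. Tph2 was thus more than 2-fold lower in replicate 2 by its estimate, yet its 26 and 7 reads gave an adjusted p of 0.104 in the exact binomial test.

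**Figure D4:**
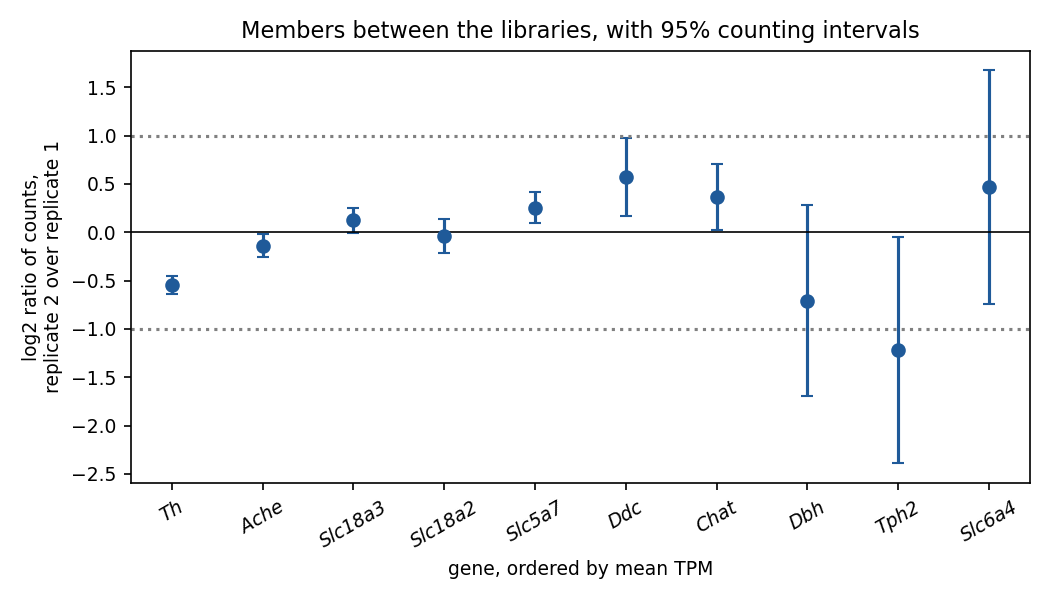
Log2 ratio of counts, replicate 2 over replicate 1, for each member in order of level, with bars for the 95% counting interval and dotted lines at 2-fold. Th lies at -0.54 with a short bar, and the bars widen toward Dbh, Tph2 and Slc6a4.

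Other genes of the cholinergic route were mostly detected, 7 of 8, with a list median of 12.3 TPM against 4.97 TPM over protein-coding genes. Acly, which makes cytosolic acetyl-CoA, stood at 200.5 and 212 TPM, and the choline kinase genes Chkb at 61.5 and 63.0 TPM and Chka at 41.0 and 39.2 TPM. Slc10a4, a vesicle transporter gene found in cholinergic and monoaminergic neurons, stood at 14.4 and 15.6 TPM, between Slc18a3 and Slc5a7. Colq, the collagen tail of muscle acetylcholinesterase, was lowest at 0.19 and 0.25 TPM, and Prima1, the membrane anchor of brain acetylcholinesterase, stood at 2.83 and 1.81 TPM. None of the 8 was called between the libraries.

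Motor neurons use Chat in the spinal cord, but bulk tissue does not show which cells carried a given marker. The motor neuron markers were detected in full, 10 of 10. They ranged from the LIM factor gene Isl1 at 127 and 101 TPM, Aldh1a2 at 58.4 and 68.7 TPM and Foxp1 at 55.4 and 56.3 TPM to Nos1 at 1.88 and 1.80 TPM. The defining factor Mnx1 stood at 2.29 and 2.76 TPM, close to Chat. The 10 markers summed to 331 and 310 TPM in replicates 1 and 2. By TPM, 4 of the 10 were higher in replicate 2 and 6 lower, and none was called. Isl1, which sensory neurons share, had the largest fall in TPM among them. Chat, Slc18a3 and Slc5a7 were higher in replicate 2, and the part of motor neurons in their levels was not tested. In a list of genes of cholinergic interneurons and of neurons that contact the cerebrospinal fluid, Pkd2l1 stood at 1.74 and 1.35, Evx1 at 1.69 and 1.28 and Pkd1l2 at 0.03 and 0.07 TPM, and 4 of 5 were detected.

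Enzymes that break down monoamines were present although Dbh, Tph2 and Slc6a4 were low. The monoamine oxidase gene Maoa stood at 13.1 and 12.3 TPM and Maob at 2.47 and 2.29 TPM. Slc29a4, a low-affinity monoamine transporter gene, stood at 61.7 and 60.8 TPM and Cyb561, which supplies electrons to Dbh, at 22.5 and 20.98 TPM. The remaining 6 of the 11 genes stayed below 1 TPM in both: Tph1, Slc18a1, Slc6a2, Slc6a3, Pnmt and Hdc. Slc6a2, the noradrenaline transporter gene, had 13 reads in replicate 1 and 0 in replicate 2, which allows up to 0.0458 TPM there. The list median was 0.57 TPM, and none was called among the 8 with enough reads to test.

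The cofactor of Th and Tph2, tetrahydrobiopterin, had 6 of its 7 synthesis and recycling genes detected. Its entry enzyme Gch1 was among the lowest, at 1.97 and 1.56 TPM, while the downstream genes Qdpr at 95.3 and 91.4, Pts at 63.1 and 56.7 and Pcbd1 at 28.3 and 21.7 TPM were highest. Gchfr, the feedback regulator of Gch1, was lowest at 1.70 and 0.89 TPM. The list median was 18.7 TPM, and none of the 7 was called.

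Th was set beside markers of the cells that could carry it. Sympathetic and noradrenergic markers had 6 of 10 genes detected. The granule protein genes Chga at 94.5 and 84.2 TPM and Chgb at 41.2 and 43.8 TPM were highest, and both are also expressed elsewhere in the nervous system. Defining factors were low, with Phox2a at 1.76 and 0.83 TPM and Hand2 at 0.05 TPM in replicate 1 and 0 in replicate 2, which allows up to 0.098 TPM. Phox2a was called lower in replicate 2, with an adjusted p of 0.0140 in the exact binomial test. Of the 8 genes tested, 6 had a count ratio above 0 and 2 below, with 1 called in each direction. The list summed to 161 and 162 TPM, and the part of sympathetic cells in the Th level was not tested.

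Sensory ganglion markers were detected in full, 10 of 10, and most were lower in replicate 2, as Th was. Some sensory neurons of the dorsal root ganglia are known to express Th. The markers summed to 616 and 506 TPM in replicates 1 and 2, and 7 of 10 had a lower TPM in replicate 2 and 3 a higher one. Avil, an actin-binding protein gene of sensory neurons, had a log2 count ratio of -0.67 ± 0.06 (counting SE), against -0.54 ± 0.05 for Th, whereas Pou4f1 at 115 and 121 TPM did not follow, with 0.03 ± 0.03. Isl1, which motor and sensory neurons share, had -0.26 ± 0.03, and Runx3 was lowest at 1.31 and 1.47 TPM. None of the 10 reached 2-fold, and the part of sensory ganglia in the Th level was not tested.

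**Figure D5:**
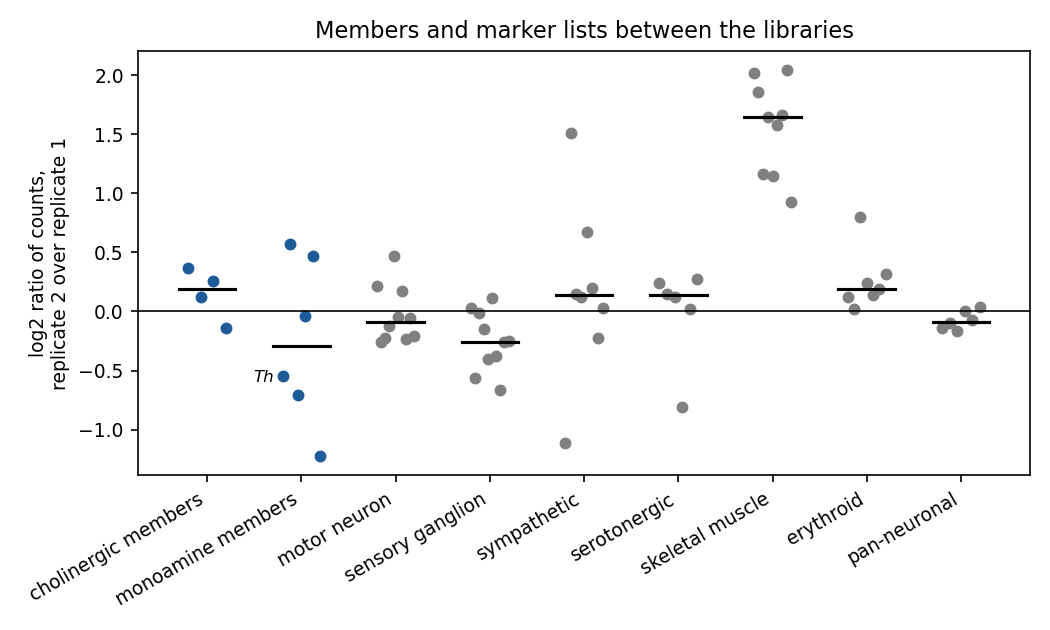
Log2 ratio of counts, replicate 2 over replicate 1, for members (blue) and marker lists (grey), 1 point per gene tested, with list medians as bars. Muscle markers lie between 0.93 and 2.04, while sensory ganglion markers have a median of -0.26.

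Midbrain dopaminergic markers had 4 of 9 genes detected, with Nr4a2 at 16.4 and 19.2 TPM, Lmx1b at 6.81 and 8.43 TPM and Foxa2 at 1.49 and 1.62 TPM highest. Pitx3, which defines these neurons together with others, had 3 and 11 reads. Otx2 had 1 and 24 reads, at 0.11 and 0.85 TPM, and was called higher in replicate 2. En2 had 0 reads in both libraries, which allows up to 0.0386 and 0.0609 TPM. The list summed to 27.0 and 34.1 TPM, most of it from Nr4a2 and Lmx1b. The part of midbrain dopamine cells in the Th level was not tested.

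For Tph2 and Slc6a4 the matching markers were those of serotonin neurons. Fev, their defining factor, had 0 reads in replicate 1, which allows up to 0.154 TPM, and 4 reads in replicate 2, at 0.20 TPM. The factors that serotonin neurons share with other cells were higher, and 5 of 7 genes were detected. Gata3 stood at 7.56 and 9.45 TPM, Lmx1b as above and Gata2 at 3.31 and 3.80 TPM. Tph2 was higher in replicate 1 and Slc6a4 and Fev in replicate 2, all with few reads.

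Slc18a2 and Slc6a4 are also genes of mast cells and megakaryocytes. Of this list, Pf4 stood at 43.1 and 36.4 TPM, Kit, which many cells share, at 30.3 and 32.5 TPM and Itga2b at 4.70 and 4.37 TPM. Gp9 stayed below 1 TPM, at 0.81 and 0.78 TPM from 13 and 8 reads. The mast cell gene Cpa3 stood at 0.20 and 1.19 TPM and was called higher in replicate 2. Mcpt4 had 0 reads in both libraries, which allows up to 0.149 and 0.235 TPM, and 3 of 7 genes were detected. The list summed to 79.2 and 75.6 TPM beside 7.90 and 8.03 TPM of Slc18a2, and its part in the Slc18a2 level was not tested. Of the muscle markers, 8 of 9 were called higher in replicate 2, namely Myog, Myod1, Acta1, Tnnt1, Tnni1, Myh3 and the acetylcholine receptor genes Chrna1 and Chrng. Acta1 stood at 19.5 and 45.7 TPM and Chrna1 at 0.39 and 1.30 TPM, and the exception was Musk at 0.43 and 0.84 TPM.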

How the data were processed

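Total RNA of neural tube was measured by sequencing in 2 libraries of 1 group, with groups and replicate numbers taken from the labels. The authors' tables give, per the file headers, expected counts (estimated reads), TPM summing to 1000000 over all features with spike-ins, FPKM, and isoform percent, the share of a gene's TPM given to a transcript. The deposited notes give assembly mm10 and annotation M4. Aligner, quantifier and strand handling: not given in the sources used here.

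Symbols and GRCm38 coordinates were read from GENCODE M21 by identifier, ignoring its version (42462 of 43346 genes, all 10 members, 3 with the same version). The related lists, 13 with 101 genes, the members and the tests were chosen with earlier results of these data known. The rule named all members and, per list, the 3 highest genes, the lowest, those at 0 and those called; further genes such as Slc10a4, Prima1, Mnx1, Maoa, Maob, Pnmt, Gch1, Avil and Pitx3, were named for their role after their values were seen, and some genes the rule names are not reported here. Likeness of pattern was not computed, since 2 libraries give 1 ratio per gene.

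Expected counts were rounded and scaled by trimmed mean of M values (edgeR 4.0.16, R 4.3.3), keeping genes whose mean count reached 10. The exact binomial test was adjusted by Benjamini-Hochberg over all genes tested. Log2 count ratios are relative to these scaled library sizes and add 0.5 to each count. A count of 0 was taken to allow 3 counts. No molecular identifiers are stated, so errors of counts cover counting only. The spread rests on 1 degree of freedom. The test was checked on simulated counts. Alternatives used DESeq2 1.42.0 size factors, spike-in scaling, no count filter, posterior mean values, FPKM, TPM over mouse genes, other detection levels and each library alone. Python 3.11.15, SciPy 1.17.1, pandas 2.3.3, NumPy 2.4.6 and matplotlib 3.10.9 were used. All 10 members had whole gene counts with a posterior standard deviation of 0, so uncertainty lies only in their transcripts.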

Additional observations from a re-analysis of the deposited data

How the results depend on the processing

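Detection of 7 of 10 members held at 0.5 TPM, at 2 TPM, on FPKM and in each library alone. Genes called between the libraries numbered 392 with the scaling used, 392 with DESeq2 size factors, 434 with spike-in scaling, 514 with no count filter and 375 with posterior mean counts, and no member was called under any of these. With spike-in scaling the median log2 ratio of all genes was 0.09 rather than 0.00, the ratio of Slc18a2 turned from -0.037 to 0.050 and 5 rather than 3 members passed the adjusted p alone. Posterior mean TPM changed the rarest genes most: Dbh was 0.94 rather than 0.41 TPM, and all 9 neighbouring pairs were then free of overlap. The mean log2 ratio became 6.05 for Th over Dbh, 6.66 for Th over Tph2 and 4.25 for Slc18a2 over Slc6a4. Posterior mean TPM also gave a share to short transcripts with 0 reads in both libraries. In replicates 1 and 2, a single such transcript took 44.38% and 65.85% of Dbh TPM and 32.54% and 61.95% of Tph2 TPM. For Slc6a4, a single such transcript took 29.88% and 32.98%. The part of these shares in the changed levels was not tested. Without division by length, Slc18a3 over Chat was 2.87, since Chat is the longer transcript. Restricting TPM to mouse genes multiplied every member by 1.15. By library, the log2 ratio ran from 2.98 to 3.23 for Slc18a3 over Chat and from 3.42 to 4.91 for Th over Ddc. No paired analysis was possible because the series has 1 group. Depth limits Dbh, Tph2 and Slc6a4, with 7 to 28 reads each.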
